A study of Mus musculus with 16 samples.

Results

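Phenobarbital (PB) was given to mice that lack Gadd45β and had received the liver carcinogen diethylnitrosamine (DEN), and the liver transcripts of these mice were compared with those of Gadd45β-null mice given DEN alone. The arrays were chosen by their sample titles, 4 of the group KO DEN + PB and 4 of the group KO DEN, which makes 8 of the 16 arrays in the series. The other 8 arrays came from wild-type (WT) C57BL/6J mice treated in the same 2 ways and entered only the shared estimate of spread and the comparison of both genotypes. All mice were males. Each received DEN once, at 90 mg/kg of body weight, at 5 weeks of age. The DEN + PB mice then drank water with 0.5 g/l PB from 7 to 57 weeks of age, the DEN mice drank plain water, and all livers were taken at 57 weeks. Both KO groups carried the null allele Gadd45b tm1Flv, in a stock whose name gives a mixed origin from B6 and a second strain. The allele, the carcinogen and the age were thus common to the comparison, and PB was the planned difference. The hour of collection is not given, so a difference in it between the groups cannot be told apart from PB. The tissue came from liver outside tumours, and each array held the RNA of 1 mouse, 4 mice per group.

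Phenobarbital switches on the constitutive androstane receptor CAR, a nuclear receptor encoded by *Nr1i3* that sits in the cytoplasm of hepatocytes until the drug triggers its release. In the nucleus CAR pairs with the retinoid X receptor and raises the genes of drug clearance, which encode cytochromes P450 that oxidise a compound, transferases that attach sulfate, glucuronic acid or glutathione to it, and pumps that move it out of the cell. Long exposure to PB after a carcinogen promotes liver tumours in mice. GADD45β is a small stress-induced protein that binds kinases of the JNK and p38 pathways, and its gene is itself raised by CAR.

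A signal is given below as log2 of the processed intensity divided by the 75th percentile of its array, so 0 is a fairly bright probe, and a difference of 1 is 2-fold. *Gadd45b*, the gene removed, lay between -7.67 and -6.92 in the KO DEN livers and between -7.02 and -5.79 in the KO DEN + PB livers, and was well above background on 0 of these 8 arrays. It was well above background on 4 of 4 arrays in each WT group, where it lay between -1.69 and 1.17. Whether its probe lies inside the deleted part is not given in the sources used here. Hepatocyte markers were bright in both KO groups, with *Alb* at 9.13 and 9.12 on average, and 0 of the 10 tested passed the test between them. The share of spots well above background ran from 58.3 to 67.7% over the 16 arrays. The 8 KO arrays lay on 4 slides, of which slides 1, 3 and 4 held both KO groups.

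PB changed few genes, but some of them by a large factor. Of 24457 probes tested, 421 (1.72%) passed an adjusted p under 0.05 with a change of 1.5-fold or more, and these named 309 of 13306 genes (2.32%), 178 higher and 131 lower with PB. Counted by the brightest probe of each gene, as all values below are, 167 genes rose (1.26%) and 116 fell (0.872%). Of these, 82 had more than 1 tested probe, and in 53 of the 82 at least 1 probe did not pass. Rises reached further than falls. The median log2 change was 1.37 among the rises and -1.10 among the falls. By the fitted change, at least 4-fold were 46 rises and 8 falls, and at least 16-fold were 15 rises and 0 falls. These counts include genes below background in one group, for which only a smaller lower bound holds. For *Rian*, among the rises, it was 9.81-fold, and for *Npas2*, among the falls, 1.62-fold. In 273 of the 283 genes the KO DEN and KO DEN + PB arrays did not overlap, a pattern that 4.58% of all genes tested showed upwards and 4.01% downwards. Which way the balance of rises and falls tipped depended on the processing. With the deposited table left unscaled between arrays, all probes shifted by -0.29 and the split became 58 higher and 102 lower, and with normexp, a model-based background correction, it was 41 higher and 4 lower. Leaving out KO DEN replicate 1 lowered the gene count to 196, and leaving out KO DEN + PB replicate 2 lowered it to 200.

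**Figure D1:**
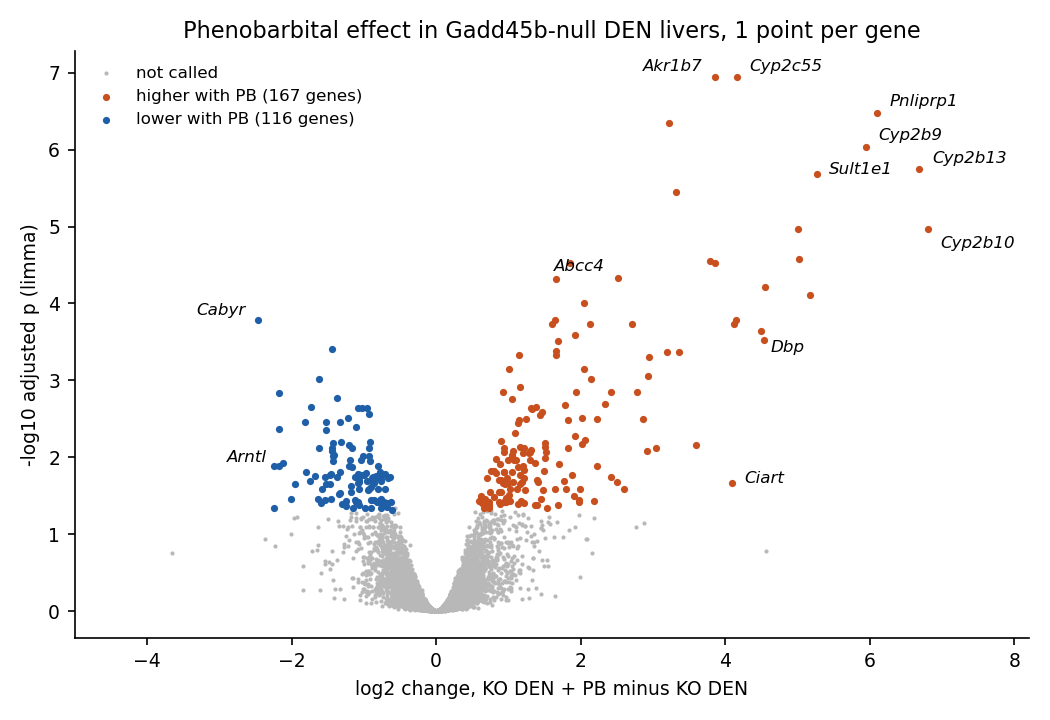
Each point is 1 of 13306 genes by its brightest probe, with the log2 change from KO DEN to KO DEN + PB on the horizontal axis and -log10 of the limma adjusted p on the vertical axis. Coloured points are the 167 genes called higher and the 116 called lower, and the rises extend to a log2 change of 6.80 while the falls end at -2.47.

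With genes that were below background in one group ranked by their lower bound, the 3 largest rises were *Cyp2b10*, *Cyp2b13* and *Cyp2b9*, cytochromes P450 of the 2B subfamily that oxidise drugs and steroids and are the classical targets of PB in mouse liver. They lie close together on chromosome 7, and their start regions are printed to show how alike these regions are. Most of each window lies before the start and is not transcribed, so it does not tell what an array probe reads. Each window runs from 250 bases before to 50 bases after the RefSeq start (GRCm38.p6, chr7:25897408-25897707, plus strand for *Cyp2b10*, chr7:26173159-26173458, plus strand for *Cyp2b9* and chr7:26061245-26061544, plus strand for *Cyp2b13*). Capitals mark AGGTCA, the half-site that nuclear receptors recognise, searched on both strands.
Cyp2b10: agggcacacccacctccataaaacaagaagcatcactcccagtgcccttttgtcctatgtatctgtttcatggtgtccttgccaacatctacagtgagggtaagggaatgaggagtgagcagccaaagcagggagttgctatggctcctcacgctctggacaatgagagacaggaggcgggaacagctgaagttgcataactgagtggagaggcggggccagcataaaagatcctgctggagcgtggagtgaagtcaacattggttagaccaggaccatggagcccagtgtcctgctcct
Cyp2b9: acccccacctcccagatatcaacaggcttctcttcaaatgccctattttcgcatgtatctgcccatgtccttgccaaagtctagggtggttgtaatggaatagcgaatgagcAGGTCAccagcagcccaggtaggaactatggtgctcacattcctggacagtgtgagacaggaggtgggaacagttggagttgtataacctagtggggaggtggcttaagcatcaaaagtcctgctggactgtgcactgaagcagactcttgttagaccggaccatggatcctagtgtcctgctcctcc
Cyp2b13: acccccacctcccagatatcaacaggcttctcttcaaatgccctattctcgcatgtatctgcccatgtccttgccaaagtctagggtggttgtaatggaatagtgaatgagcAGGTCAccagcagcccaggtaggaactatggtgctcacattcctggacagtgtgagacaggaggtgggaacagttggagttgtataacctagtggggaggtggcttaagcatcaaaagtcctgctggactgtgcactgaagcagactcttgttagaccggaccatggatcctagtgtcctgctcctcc

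The *Cyp2b9* and *Cyp2b13* windows were 99.3% identical, and each held 1 half-site that began 138 bases before the start, while *Cyp2b10* shared 72.9% of aligned positions with either and held none. The half-site stood in 16.3% of all 32851 windows of this length. *Cyp2b10* read 0.23, -3.02, -1.37 and -0.98 in the 4 KO DEN livers and 6.09, 5.57, 4.72 and 5.68 in the 4 KO DEN + PB livers. The groups were far apart, although the KO DEN livers spread over more than 3 units, and the fold change was 112 (log2 change 6.80 ± 0.62 (SE), adjusted p = 1.09e-05). *Cyp2b9* read 2.42, 0.20, 0.91 and 0.63 in the 4 KO DEN livers and 7.29, 6.79, 6.95 and 6.92 in the 4 KO DEN + PB livers, a 61.8-fold rise (log2 change 5.95 ± 0.43 (SE), adjusted p = 9.16e-07). *Cyp2b13* read 0.94, -1.60, -0.53 and -0.23 in the 4 KO DEN livers and 6.94, 6.31, 5.62 and 6.45 in the 4 KO DEN + PB livers, a 103-fold rise (log2 change 6.69 ± 0.52 (SE), adjusted p = 1.8e-06). In all 3 genes KO DEN replicate 1 was the highest and replicate 2 the lowest of the KO DEN livers. A second, dimmer probe for *Cyp2b13* changed by 2.11 and did not pass the test, while a second one for *Cyp2b9* changed by 7.00. The probe sequences were not available here, so hybridisation of one transcript to the other's probe cannot be told apart from a rise of both. Within slides 1, 3 and 4 the change of *Cyp2b10* was 8.70, 5.34 and 5.90.

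**Figure D2:**
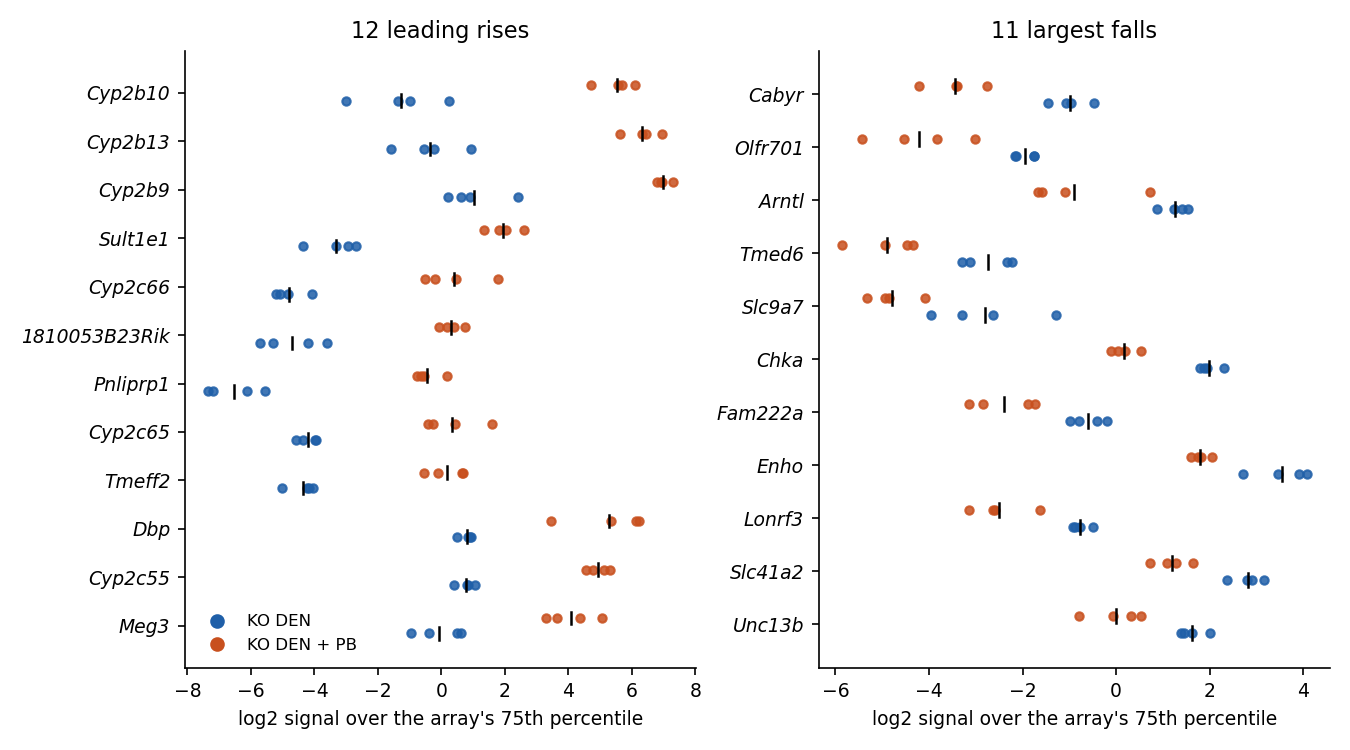
Log2 signal of the 12 leading rises (left) and 11 largest falls (right) on each of the 4 KO DEN arrays (blue) and 4 KO DEN + PB arrays (orange), with black bars at the group means. The groups are apart in every gene shown because that was a condition of the choice, and the rises leave wider gaps than the falls.

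A wider set of genes under CAR, mostly of oxidation and reduction, gave rises and no falls. This CAR set also held the hydrolases *Ces2a*, *Ces2c* and *Ephx1*, and *Alas1*, *Orm3* and *Tsku*. Of 42 tested, 23 rose, 0 fell and 19 did not pass, with a median log2 change of 0.88 against 0.01 over all genes. Over all genes 1.26% rose and 0.872% fell, which are the shares to hold beside this and the list counts below. Next to the 2B genes came the 2C genes *Cyp2c66*, *Cyp2c65* and *Cyp2c55*, which metabolise fatty acids and drugs. *Cyp2c55* read 0.82, 0.40, 1.07 and 0.85 in the 4 KO DEN livers and 5.32, 5.13, 4.56 and 4.76 in the 4 KO DEN + PB livers, so it rose 17.8-fold from a level already well measured (log2 change 4.16 ± 0.24 (SE), adjusted p = 1.15e-07). *Cyp2c65* rose by 4.55 and *Cyp2c66* by 5.18 (adjusted p = 6.07e-05 and 7.69e-05). In both of these the brightest liver was KO DEN + PB replicate 1, and as near copies they may share probes. The abundant liver forms moved less, with *Cyp2c29* at 0.93 (adjusted p = 0.0014), *Cyp3a11*, the main drug oxidase of the 3A family, at 0.87 (adjusted p = 0.0286), and *Cyp2a4*, a steroid hydroxylase, at 0.89 (adjusted p = 0.0286).

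Of the enzymes that serve the P450s, *Por* and *Alas1* rose and *Cyb5a* did not pass. *Por*, which passes electrons to every microsomal P450, changed by 1.09 (adjusted p = 0.00489), *Alas1*, the first step of haem synthesis, by 1.69 (adjusted p = 0.0421), and *Cyb5a*, a second electron donor, by 0.52 (adjusted p = 0.285). Among the reductases, *Akr1b7* read -3.59, -3.08, -2.95 and -3.06 in the 4 KO DEN livers and 1.06, 0.46, 0.40 and 0.86 in the 4 KO DEN + PB livers. *Akr1b7*, an aldose reductase that clears lipid aldehydes, thus rose 14.6-fold with no overlap of the groups (log2 change 3.86 ± 0.22 (SE), adjusted p = 1.15e-07), and *Cbr3*, a carbonyl reductase, rose 7.65-fold (log2 change 2.94 ± 0.41 (SE), adjusted p = 0.000871). The esterases *Ces2a* and *Ces2c* changed by 1.05 and 1.61, and both passed. The members that did not pass included *Cyp1a1* at 0.61 (adjusted p = 0.321), *Ephx1*, the microsomal epoxide hydrolase, at 0.59 (adjusted p = 0.302), and *Cyp2a5* at 0.73 (adjusted p = 0.0795). *Aox3* and *Akr1b8* were the 2 members below 0, at -0.22 and -0.46. Between 17 and 20 members of the set passed when any 1 of the 8 KO arrays was left out, 12 with normexp and 13 with the unscaled series table.

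Among 32 conjugating enzymes 9 rose and 0 fell, with a median of 0.69, where 1.26% of all genes rose and 0.872% fell. *Sult1e1*, the sulfotransferase that inactivates oestrogens, led them. *Sult1e1* read -4.34, -2.95, -2.68 and -3.31 in the 4 KO DEN livers and 2.59, 1.83, 2.03 and 1.34 in the 4 KO DEN + PB livers, a 38.5-fold rise (log2 change 5.27 ± 0.42 (SE), adjusted p = 2.08e-06). Other sulfotransferases rose less, *Sult1c2* 3.16-fold and *Sult1d1* 2.07-fold. Glutathione S-transferases, which couple electrophiles to glutathione, gave 5 of the 9 calls, and the 4 largest after *Sult1e1* were *Gsta2*, *Gstm2*, *Gstt3* and *Sult1c2*, between 1.66 and 1.88. *Gsta1* and *Gsta2* are near copies that one probe may not separate. With the series table unscaled, as with normexp, 4 of the 32 passed. The number called was 7 without KO DEN replicate 4, and *Gsta2* was then one of those lost (adjusted p = 0.0587). Of the glucuronosyltransferases *Ugt2b35* rose (0.82, adjusted p = 0.0105), while *Ugt1a1* gave 1.15 (adjusted p = 0.31).

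Of 23 transporters 4 rose and 0 fell, where 1.26% of all genes rose and 0.872% fell. *Abcc4* read 0.08, -0.55, -0.01 and -0.63 in the 4 KO DEN livers and 2.75, 1.74, 2.06 and 2.37 in the 4 KO DEN + PB livers. *Abcc4*, an export pump of the basolateral membrane that carries sulfated steroids and bile acids, rose 5.70-fold (log2 change 2.51 ± 0.26 (SE), adjusted p = 4.61e-05), and *Abcc3*, its neighbour in function, rose 2.01-fold (log2 change 1.01 ± 0.14 (SE), adjusted p = 0.000709). *Slco1a4*, an uptake carrier, and *Abcc5* changed by 1.19 and 0.62 (adjusted p = 0.0209 and 0.0314). Of the other probes of *Abcc5*, one gave 1.10 and passed, and one went the other way at -0.37 (adjusted p = 0.701). Leaving out 1 array raised the adjusted p of *Slco1a4* as far as 0.0732 without KO DEN + PB replicate 2, and that of *Abcc5* as far as 0.0956 without KO DEN replicate 3. Under normexp, and equally without scaling of the series table, 1 of the 23 passed. The receptors themselves did not pass. *Nr1i3* gave 0.24 (adjusted p = 0.622), its partner *Rxra* -0.02 (adjusted p = 0.988) and *Nr1i2*, the pregnane X receptor, 0.01 (adjusted p = 0.994). Of the 17 genes of that group, in which the GADD45 family was counted, *Gadd45a* passed. It rose 2.74-fold, from 0.03 ± 0.46 to 1.48 ± 0.60 (mean ± SD, n = 4, limma adjusted p = 0.0348, and up to 0.111 without KO DEN + PB replicate 3). Both means lay below the WT DEN mean of 1.85. *Gadd45g* gave 1.00 (adjusted p = 0.708). Of 16 targets of NRF2, the sensor of oxidative and electrophilic stress, *Nqo1*, a quinone reductase, rose (1.14, adjusted p = 0.0134, and up to 0.0515 without KO DEN replicate 4), and *Hmox1* and *Gclc* gave 0.08 and -0.31, neither past the test.

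Several of the leading rises lie outside drug clearance. *Pnliprp1*, a relative of pancreatic lipase, was not well above background on any KO DEN array and was so on 4 of 4 KO DEN + PB arrays. Its signal ran from -7.35 to -5.54 in the former and from -0.76 to 0.17 in the latter, at least 27.7-fold higher against the lowest signal that counts as above background (adjusted p = 3.29e-07). It belongs to a list of 18 markers of pancreatic acinar cells, of which 10 of the 17 on the array were above background on no KO array, and it was the 1 called among the 7 tested. *Tmeff2*, a membrane protein with follistatin domains, rose 23.1-fold, and the unnamed transcript *1810053B23Rik* 32.4-fold (adjusted p = 0.000299 and 2.66e-05).

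*Meg3* and *Rian*, long non-coding RNAs made from the maternal copy of the imprinted Dlk1-Dio3 cluster, rose together. *Meg3* read -0.97, 0.62, 0.49 and -0.40 in the 4 KO DEN livers and 3.63, 4.36, 5.05 and 3.30 in the 4 KO DEN + PB livers. The rise was 17.8-fold (log2 change 4.15 ± 0.49 (SE), adjusted p = 0.000164), and the other 4 probes of *Meg3* gave between 3.77 and 4.10. *Rian* was above background on 0 of 4 KO DEN arrays and 4 of 4 KO DEN + PB arrays, with a rise of at least 9.81-fold (adjusted p = 1.09e-05). It entered the test through the KO DEN + PB arrays alone, since no other group had 4 of 4 above background. In both RNAs KO DEN + PB replicate 3 was the highest liver. The protein-coding members of the cluster that were tested did not pass, *Dlk1* at 1.51 (adjusted p = 0.113) and *Dio3* at -0.57 (adjusted p = 0.78). The median of the 4 members tested was 2.83, or 2.40 with *Rian* at its bound. With normexp it was 0.74, and *Rian*, at 1.07, was no longer called.

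The leading falls were smaller and more mixed in function. *Cabyr* read -0.96, -1.08, -1.45 and -0.47 in the 4 KO DEN livers and -3.43, -3.40, -2.77 and -4.22 in the 4 KO DEN + PB livers. *Cabyr*, a calcium-binding protein best known from sperm, fell 5.52-fold, the largest fall by the rule used here (log2 change -2.47 ± 0.29 (SE), adjusted p = 0.000162). *Chka* read 1.95, 1.87, 1.79 and 2.31 in the 4 KO DEN livers and 0.52, 0.03, -0.10 and 0.20 in the 4 KO DEN + PB livers. *Chka*, the choline kinase that opens phosphatidylcholine synthesis, fell 3.53-fold (log2 change -1.82 ± 0.30 (SE), adjusted p = 0.00349). No KO DEN + PB liver reached the lowest KO DEN liver for this gene.

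*Enho*, which encodes the liver hormone adropin, fell 3.34-fold, from 3.54 ± 0.61 to 1.80 ± 0.18 (adjusted p = 0.0206). *Slc41a2*, a magnesium transporter, fell 3.08-fold and *Slc9a7*, a sodium-proton exchanger of the Golgi, 4.00-fold (adjusted p = 0.000965 and 0.0348). *Unc13b*, a vesicle priming factor, fell 3.08-fold, and *Lonrf3*, *Fam222a*, *Tmed6* and the olfactory receptor gene *Olfr701* fell between 3.32- and 4.75-fold. With the slide as a block, *Fam222a* and *Slc9a7* missed the threshold (adjusted p = 0.055 and 0.0809), and the other 22 of the 24 leading genes passed. Leaving out 1 array raised the adjusted p of *Enho* as far as 0.0716 without KO DEN replicate 4, of *Slc9a7* as far as 0.12 without KO DEN + PB replicate 2 and of *Fam222a* as far as 0.0568 without KO DEN + PB replicate 2. All 24 kept their direction within each of slides 1, 3 and 4, which the choice of genes with groups apart fixed in advance. With normexp the 12 leading rises passed and 4 of the 12 leading falls did.

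Genes of the circadian clock moved in both directions. The clock is a loop in which BMAL1 (*Arntl*) and its partner CLOCK or NPAS2 bind E-boxes and raise *Per*, *Cry*, *Nr1d1* and *Dbp*, whose products in turn restrain or time the loop. Of 17 clock genes tested, 5 rose and 3 fell, where 1.26% of all genes rose and 0.872% fell. Of the activators, *Arntl* and *Npas2* fell. *Arntl* read 1.41, 0.88, 1.55 and 1.23 in the 4 KO DEN livers and 0.73, -1.58, -1.67 and -1.10 in the 4 KO DEN + PB livers, a 4.50-fold fall (log2 change -2.17 ± 0.43 (SE), adjusted p = 0.0131). *Npas2* was above background on 4 of 4 KO DEN arrays and on 0 of 4 KO DEN + PB arrays, at least 1.62-fold lower (adjusted p = 0.0457, and up to 0.124 without KO DEN + PB replicate 2), and *Clock* gave -0.54 (adjusted p = 0.295). With normexp the change of *Npas2* was 0.07, and this gene entered the test through the KO DEN arrays alone. The repressor *Cry1* fell as well (log2 change -1.43 ± 0.25 (SE), adjusted p = 0.00643).

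The REV-ERB receptors and 2 of the related output genes *Dbp*, *Tef* and *Hlf* rose. *Dbp* read 0.85, 0.91, 0.92 and 0.49 in the 4 KO DEN livers and 3.45, 6.12, 6.22 and 5.33 in the 4 KO DEN + PB livers. *Dbp*, a transcription factor whose RNA swings widely over the day, rose 22.5-fold (log2 change 4.49 ± 0.55 (SE), adjusted p = 0.000227), and its relative *Tef* rose 2.59-fold (log2 change 1.37 ± 0.27 (SE), adjusted p = 0.012). *Hlf*, of the same family, gave 0.38 (adjusted p = 0.359), and *Nfil3*, which competes with them for their sites, was 2.00-fold lower on average (adjusted p = 0.101). *Nr1d1* read -0.52, -0.26, -0.44 and -0.39 in the 4 KO DEN livers and 0.77, 1.99, 1.29 and 1.46 in the 4 KO DEN + PB livers, a 3.44-fold rise (log2 change 1.78 ± 0.27 (SE), adjusted p = 0.0021), and *Nr1d2* rose 1.92-fold (adjusted p = 0.0214, and up to 0.0768 without KO DEN + PB replicate 3). *Ciart*, a repressor of the loop, read -5.32, -5.12, -6.94 and -6.77 in KO DEN and -5.40, -1.47, -0.87 and -0.02 in KO DEN + PB (log2 change 4.10 ± 0.88 (SE), adjusted p = 0.0215), so its groups overlapped through 1 liver. That liver, KO DEN + PB replicate 1, lay nearest to the KO DEN mean in 7 of the 8 clock genes that passed, and it was the 1 KO array on slide 2. Without it 8 clock genes rose and 3 fell, without KO DEN + PB replicate 2 the counts were 4 and 1, and without KO DEN replicate 1 and KO DEN + PB replicate 2 together they were 2 and 0. With normexp they were 2 and 1. *Arntl* missed the threshold without KO DEN + PB replicate 2 (adjusted p = 0.0512). *Per1*, *Per2* and *Usp2* were 2.82-, 2.48- and 6.79-fold higher on average and did not pass (adjusted p = 0.262, 0.106 and 0.0804). The labels give no hour of collection.

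The E-box, CACGTG, reads the same on both strands and was searched in the start windows of the clock genes. It is shown here since genes that rose and a gene that fell both carried it. It stood in 4 of the 14 clock genes whose window was in the RefSeq table, *Ciart*, *Tef*, *Cry1* and *Per1*, and in 7.15% of all windows. The clock count is by gene, over all windows of that gene. The share is by single window, with 32851 windows for 27025 genes, so they are not in like units. The stretches around it are printed below with the E-box in capitals (RefSeq, GRCm38.p6). They lie at chr3:95882247-95882364, minus strand for *Ciart*, chr15:81802526-81802571, plus strand and chr15:81811256-81811301, plus strand for 2 starts of *Tef*, and chr10:85185089-85185134, minus strand for *Cry1*.
Ciart: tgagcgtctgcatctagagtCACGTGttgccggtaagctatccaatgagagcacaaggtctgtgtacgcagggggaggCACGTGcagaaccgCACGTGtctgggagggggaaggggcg
Tef, first start: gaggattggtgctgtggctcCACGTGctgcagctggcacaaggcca
Tef, second start: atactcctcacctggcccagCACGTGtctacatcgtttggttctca
Cry1: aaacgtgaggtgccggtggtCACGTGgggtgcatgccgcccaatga

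The 3 E-boxes of *Ciart* began 116, 58 and 44 bases before its start, those of *Tef* 127 and 138 bases before their starts, and that of *Cry1* 60 bases before. Of the genes with an E-box *Ciart* and *Tef* rose, *Cry1* fell and *Per1* did not pass. The match describes the sequence and not a site in use.

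**Figure D3:**
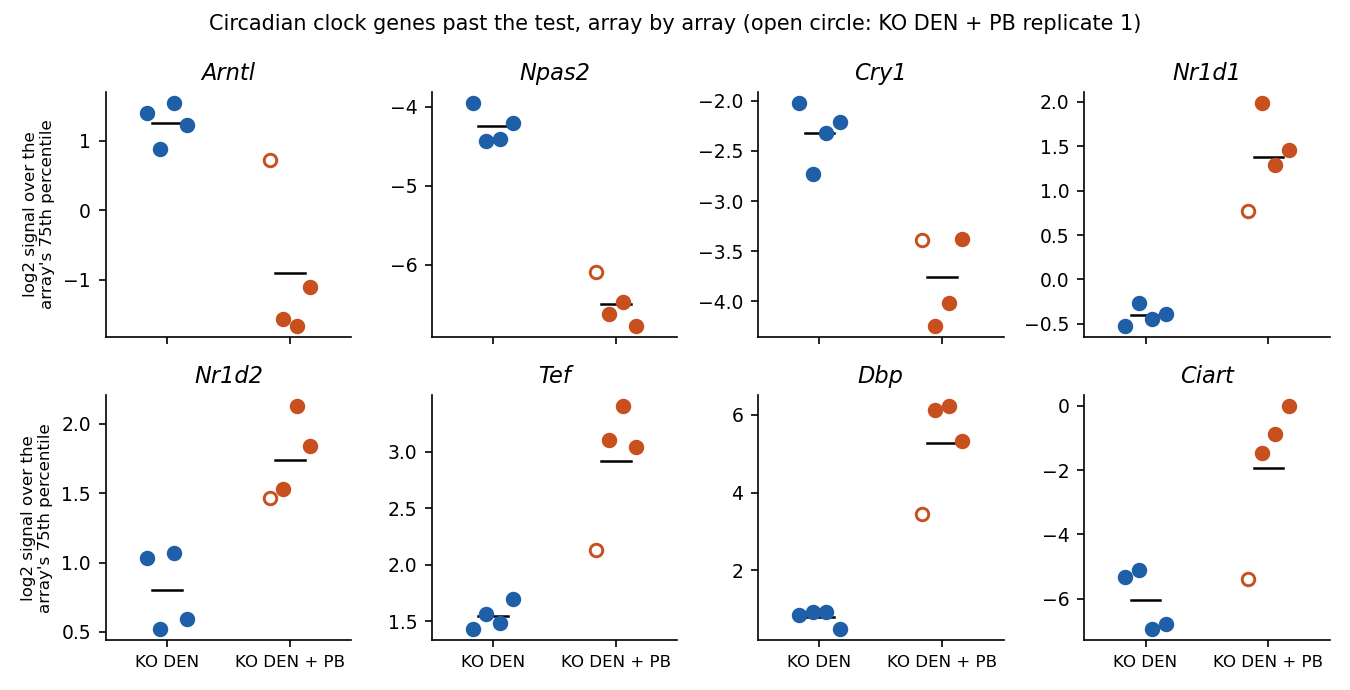
Log2 signal of the 8 clock genes past the test on each KO DEN array (blue) and KO DEN + PB array (orange), with bars at the group means and 1 vertical scale per gene. KO DEN + PB replicate 1, the open circle, lies nearest to KO DEN in 7 of the 8 genes, and in *Ciart* it falls among the KO DEN arrays.

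Serine protease inhibitors of the Serpinb1 family, which act inside cells on neutrophil proteases, rose in all 3 copies on the array. The group was put together after its values were seen, as were the B cell and neutrophil genes below. *Serpinb1a* read 0.65, 0.07, 1.59 and -0.42 in the 4 KO DEN livers and 4.81, 4.24, 4.02 and 4.25 in the 4 KO DEN + PB livers, a 14.5-fold rise (log2 change 3.86 ± 0.38 (SE), adjusted p = 2.96e-05). *Serpinb1b* and *Serpinb1c* rose 17.4- and 13.8-fold. KO DEN replicate 3 was the highest and replicate 4 the lowest of the KO DEN livers for each copy. The 3 genes are close relatives, so their probes may read one another's transcripts. All 3 passed whichever 1 array was left out, but with normexp *Serpinb1b* did not (adjusted p = 0.0921) and the median of the 3 changes went from 3.86 to 2.23.

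Some genes of B cells and neutrophils fell with PB. Of 12 B cell genes tested 6 fell and 0 rose, with a median of -0.98, where 0.872% of all genes fell. *Ms4a1* read -1.12, -0.88, -0.74 and -1.72 in the 4 KO DEN livers and -2.07, -2.78, -2.41 and -2.86 in the 4 KO DEN + PB livers. *Ms4a1*, the surface protein CD20, fell 2.67-fold (log2 change -1.42 ± 0.26 (SE), adjusted p = 0.00927), *Cxcr5*, which guides B cells into follicles, 2.77-fold, and *Fcrla* and *Spib* 2.49- and 2.25-fold. *Cd79b*, a chain of the B cell receptor complex, did not pass (-1.10, adjusted p = 0.0537). Of 7 neutrophil genes tested 4 fell, and the median was -1.07. *S100a9* read 2.36, 2.84, 2.22 and 1.94 in the 4 KO DEN livers and 1.26, 0.65, 1.32 and 0.45 in the 4 KO DEN + PB livers. *S100a9*, a subunit of the calprotectin complex, fell 2.68-fold and its partner *S100a8* 2.46-fold (adjusted p = 0.011 and 0.0406). *Slpi*, which epithelia also secrete, and *Pglyrp1* fell 2.73- and 2.10-fold, though the groups overlapped in *Slpi*. These calls rested on few arrays. Between 3 and 7 B cell genes and 1 or 2 neutrophil genes passed when 1 of the 8 KO arrays was left out, 1 of each without KO DEN replicate 1 and KO DEN + PB replicate 2 together, and 0 of either with normexp, where the medians were -0.11 for the B cell and -0.28 for the neutrophil genes.

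Sums and medians over whole marker lists are given beside these falls. The sums add signals on a linear scale, so the brightest genes weigh most. The summed signal of the 12 neutrophil genes, as log2, lay between 2.84 and 3.45 in KO DEN and between 1.51 and 2.18 in KO DEN + PB, and *Ngp*, *Mmp8* and *Elane* were above background on no KO array. In KO DEN *S100a9* averaged 2.34 and *Slpi* 0.72 beside a neutrophil sum of 3.07, so that sum largely repeats falls already given. The sum of the 15 B cell genes lay between 3.63 and 3.94 and between 3.26 and 3.59, with *Pax5* and *Blk* above background on no KO array. The 6 called B cell genes averaged -1.11 or lower in KO DEN, where the B cell sum averaged 3.74, so that sum mostly reads other genes. The macrophage sum overlapped, at 5.57 to 6.05 and 5.07 to 6.09. The list medians were -0.38 for 14 macrophage genes, -0.41 for 13 endothelial genes, -0.22 for 7 cholangiocyte genes and -0.11 for 16 stellate and matrix genes, and 0 members of these lists passed. Their values were below 0 in 14 of 14, 12 of 13, 7 of 7 and 15 of 16 members. Of 13 lymphocyte genes *Ms4a1* was the 1 called, and of 4 erythroid and 5 adipocyte genes 0 were. In whole liver RNA, fewer cells of a type and less RNA per cell cannot be told apart, and the part of such cells in the falls was not tested.

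Genes whose liver level depends on sex moved in part. Of 19 genes higher in female liver, 6 rose and 0 fell, with a median of 0.57, but 4 of the 6, *Cyp2b9*, *Cyp2b13*, *Cyp2a4* and *Cyp3a16*, are also in the CAR set and *Sult1e1* is among its conjugating enzymes. The remaining one, *Hao2*, a hydroxyacid oxidase, rose 6.08-fold (log2 change 2.61 ± 0.57 (SE), adjusted p = 0.0258). The number that rose was 3 with normexp, with the unscaled series table and without KO DEN + PB replicate 3, and with 1 array left out the adjusted p of *Hao2* reached 0.0828 without KO DEN + PB replicate 4. *Cyp17a1* and *Prlr* gave 0.23 and -0.39, neither past the test. Of 22 genes higher in male liver, the esterase *Ces2b* rose 3.12-fold and *Cyp2u1* fell 2.37-fold (adjusted p up to 0.102 without KO DEN replicate 1), and the median was 0.04. *Cyp4a12a*, *Mup1* and *Hsd3b5* did not pass, at 0.32, 0.16 and -1.41.

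Lists of intermediary metabolism gave few calls. In lists this short, 1 call lies close to the 2.13% of all genes that were called. *Srebf1*, the factor that drives fatty acid synthesis, fell 1.91-fold (log2 change -0.94 ± 0.21 (SE), adjusted p = 0.0269), the 1 call among 23 genes of that pathway, and its targets *Fasn* and *Scd1* gave -0.48 and -0.31 without passing. *Pdk4*, which spares glucose by blocking pyruvate dehydrogenase, fell 2.51-fold (adjusted p = 0.029), alone among 26 genes listed for fatty acid oxidation, and *Pmvk*, of the mevalonate pathway, fell 1.61-fold (adjusted p = 0.044), alone among 23 of cholesterol synthesis. None of these 3 calls held under every omission of 1 array, and the adjusted p reached 0.0799 without KO DEN + PB replicate 4 for *Srebf1*, 0.101 without KO DEN + PB replicate 2 for *Pdk4* and 0.156 without KO DEN + PB replicate 2 for *Pmvk*. Bile acid synthesis, glucose metabolism and periportal genes gave 0 calls among 15, 15 and 14. Of 16 pericentral genes *Cyp1a2*, also in the CAR set, and *Rhbg*, an ammonium transporter, rose 2.04- and 3.46-fold. Their adjusted p reached 0.104 without KO DEN + PB replicate 2 and 0.0876 without KO DEN replicate 1, respectively.

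Stress and growth lists also moved in single genes, where 2.13% of all genes were called. *Trib3*, a pseudokinase raised in the unfolded protein response, rose 4.40-fold (log2 change 2.14 ± 0.26 (SE), adjusted p = 0.000187), and the chaperone *Dnajb9* rose 2.33-fold, while *Hspa5*, *Atf4* and *Ddit3* gave 0.46, -0.38 and 0.67 and did not pass. *Gdf15*, a stress cytokine, rose 2.23-fold, the 1 call among 19 genes of p53 and DNA damage, with *Cdkn1a* at -0.30 (adjusted p = 0.86). Among 23 acute phase genes *Orm3*, also in the CAR set, rose 4.70-fold and *Hamp2*, a hepcidin copy, 4.57-fold, though the groups overlapped in *Hamp2*. *Saa1* and *Hp* gave -0.27 and 0.15. Of 23 cell cycle genes 0 passed, and the median was -0.15, with *Mki67* at -0.38 (adjusted p = 0.854) and *Ccnb2* at -0.58 (adjusted p = 0.615). Among 16 genes of liver tumours and fetal liver, *Cbr3*, also in the CAR set, and *Robo1*, a guidance receptor, rose. The Golgi protein gene *Golm1* fell (-1.04, adjusted p = 0.0109), and *Afp* and *Igf2* gave 0.56 and 0.60 without passing. Among 18 immediate early genes *Zfp36* rose and *Fosl2* fell, by 0.68 and -0.76. Of the calls named here *Trib3*, *Orm3*, *Cbr3*, *Robo1* and *Golm1* passed whichever 1 array was left out, while the adjusted p reached 0.12 without KO DEN + PB replicate 4 for *Dnajb9*, 0.0573 without KO DEN replicate 1 for *Gdf15*, 0.118 without KO DEN replicate 1 for *Hamp2*, 0.141 without KO DEN + PB replicate 2 for *Zfp36* and 0.129 without KO DEN + PB replicate 2 for *Fosl2*.

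**Figure D4:**
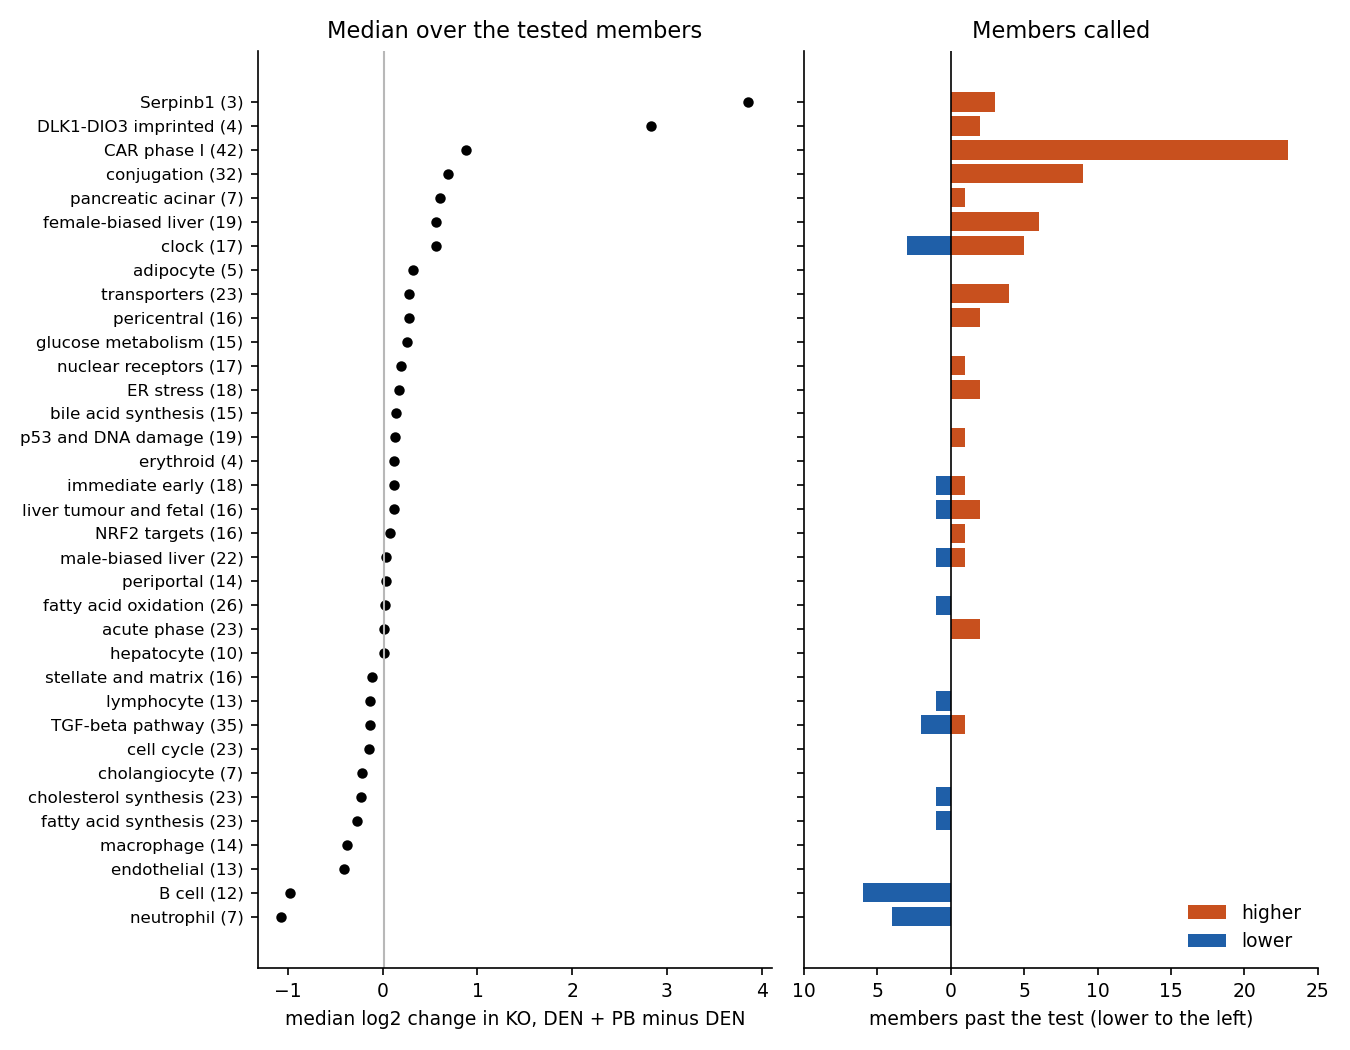
For each gene list, with the number of tested members in parentheses, the left panel shows the median log2 change from KO DEN to KO DEN + PB (grey line, the 0.01 of all genes) and the right panel the number of members called higher (orange) or lower (blue). The CAR set has 23 calls, all higher, and the B cell and neutrophil lists have 6 and 4, all lower.

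The TGF-β pathway, which halts the growth of hepatocytes and drives fibrosis, was one the study followed. Of 35 genes in that list 1 rose and 2 fell, where 1.26% of all genes rose and 0.872% fell, and the median was -0.14. The rise was *Fndc5*, a gene that the paper links to the pathway through its product irisin, and no other listed gene passed upwards. *Fndc5* read -2.99, -2.88, -3.47 and -2.78 in the 4 KO DEN livers and -1.94, -1.78, -1.53 and -1.67 in the 4 KO DEN + PB livers. *Fndc5*, the precursor of irisin, rose 2.45-fold with no overlap (log2 change 1.29 ± 0.24 (SE), adjusted p = 0.00859). Its call was lost with normexp (0.67, adjusted p = 0.761), with normexp that left out outlying backgrounds (0.67, adjusted p = 0.0516) and with the unscaled series table (1.00, adjusted p = 0.142). *Tgfbr2* read 1.91, 1.91, 1.71 and 1.84 in the 4 KO DEN livers and 2.70, 2.49, 2.29 and 2.12 in the 4 KO DEN + PB livers. *Tgfbr2*, the receptor that binds the ligand, lay higher in every KO DEN + PB liver, 1.47-fold, but met neither threshold (log2 change 0.56 ± 0.15 (SE), adjusted p = 0.0678, two-sided exact permutation p = 0.0286, the smallest that 4 against 4 can give). Of the genes that fell, one was *Inhba*, a subunit of activin, at -0.99 (adjusted p = 0.0462), and the other *Skil*, a repressor of SMAD signalling, at -0.92 (adjusted p = 0.0259). Without KO DEN replicate 1 neither fall passed (adjusted p = 0.13 and 0.0915). The ligand *Tgfb1* and the signal carriers *Smad2* and *Smad3* gave -0.22, -0.25 and -0.03.

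In the panel of 12 genes that were also followed by PCR, *Gadd45b* included, 6 rose here, *Cyp2b9*, *Cyp2b10*, *Cyp2b13*, *Sult1e1*, *Akr1b7* and *Fndc5*. *Cdh1* read 0.94, 1.42, -1.68 and 1.19 in the 4 KO DEN livers and 0.50, -1.14, -0.31 and -0.89 in the 4 KO DEN + PB livers. KO DEN replicate 3 stood far below the other 3 livers of its group for *Cdh1*, which encodes E-cadherin (log2 change -0.93 ± 0.55 (SE), adjusted p = 0.56). *Krt19*, a keratin of bile duct cells, gave -0.22 (adjusted p = 0.767), *Nedd9*, a scaffold of cell adhesion, -0.77 (adjusted p = 0.222), and *Casp1*, the inflammasome protease, -0.04 (adjusted p = 0.977). With normexp the changes of *Krt19* and *Nedd9* turned to 0.06 and 0.02.

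The same contrast in WT livers places these changes. Over the 42 genes of the CAR set the WT median was 0.74, against 0.88 in KO mice. Among the genes called in KO, a choice that favours the KO change, the median WT change was 0.77 for the rises and -0.19 for the falls. The difference of the effects, KO minus WT, was 0.11 ± 0.87 (SE) for *Cyp2b10* (WT log2 change 6.69), -0.24 ± 0.34 for *Cyp2c55* (4.40) and 0.10 ± 0.69 for *Meg3* (4.05). By brightest probe 0 of 13306 genes reached an adjusted p under 0.05 for this difference with limma, 881 (6.62%) had an unadjusted p under 0.05, and without moderation the count was also 0. The exceptions were 2 probes with no gene name, both dim in part of the groups. No named gene was thus shown to respond differently in the genotypes, which does not show that the responses were alike. WT and KO mice may differ in strain beside the allele, which cannot be told apart here.

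The genes named above whose effects lay furthest apart were mostly outside drug clearance. *Dbp* changed by 4.49 in KO and 0.46 in WT, a difference of 4.03 ± 0.78 (adjusted p = 0.162), and *Nr1d1* by 1.78 and -0.01 (difference 1.79 ± 0.39, adjusted p = 0.205). The levels show which group stood apart. *Dbp* lay at 3.58 to 5.42 in WT DEN and 3.47 to 5.49 in WT DEN + PB, near the 3.45 to 6.22 of KO DEN + PB and above the 0.49 to 0.92 of KO DEN. *Nr1d1* likewise lay at 0.56 to 1.82 and 0.76 to 1.69 in the WT groups and 0.77 to 1.99 in KO DEN + PB, with KO DEN below at -0.52 to -0.26. Without KO DEN + PB replicate 1 the difference for *Dbp* was 4.64 and passed (adjusted p = 0.0198). *Serpinb1a* and *Serpinb1c* differed by 2.94 ± 0.54 and 3.01 ± 0.53 (adjusted p = 0.162 for both), and passed without KO DEN replicate 3 (adjusted p = 0.0224). The lowest group was again KO DEN, with *Serpinb1a* at -0.42 to 1.59 against 2.04 to 3.25 in WT DEN, 2.82 to 4.08 in WT DEN + PB and 4.02 to 4.81 in KO DEN + PB. KO DEN also had the lowest mean for *Gadd45a*, *Trib3*, *Dnajb9* and *Zfp36*, at 0.03, 0.69, 2.01 and 1.39. The WT DEN means were 1.85, 2.24, 3.29 and 2.05, and no difference of these genes passed. In other rises, such as *Meg3* and *Abcc4*, KO DEN was not the lowest. *Sult1e1* rose in both genotypes, by 5.27 in KO and 2.45 in WT (difference 2.82 ± 0.59, adjusted p = 0.185). *Krt19* went the other way, with -0.22 in KO and 1.27 in WT (adjusted p = 0.162), and so did *Slpi*, with -1.45 and 0.95 (adjusted p = 0.162). *Fcrla* changed by -1.31 in KO and 0.28 in WT (adjusted p = 0.17), and passed without WT DEN replicate 3 (adjusted p = 0.00643). *Slc41a2* changed by -1.62 and -0.09 (adjusted p = 0.193). Over the 12 B cell genes the median was -0.98 in KO and 0.21 in WT. *Abcc4* and *Cbr3* had larger changes in WT, at 3.49 and 4.01 (adjusted p of the differences 0.667 and 0.9). *Fndc5* and *Tgfbr2* gave 1.87 and 0.65 in WT, and their differences were -0.57 ± 0.34 and -0.10 ± 0.21 (adjusted p = 0.925 and 0.991).

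**Figure D5:**
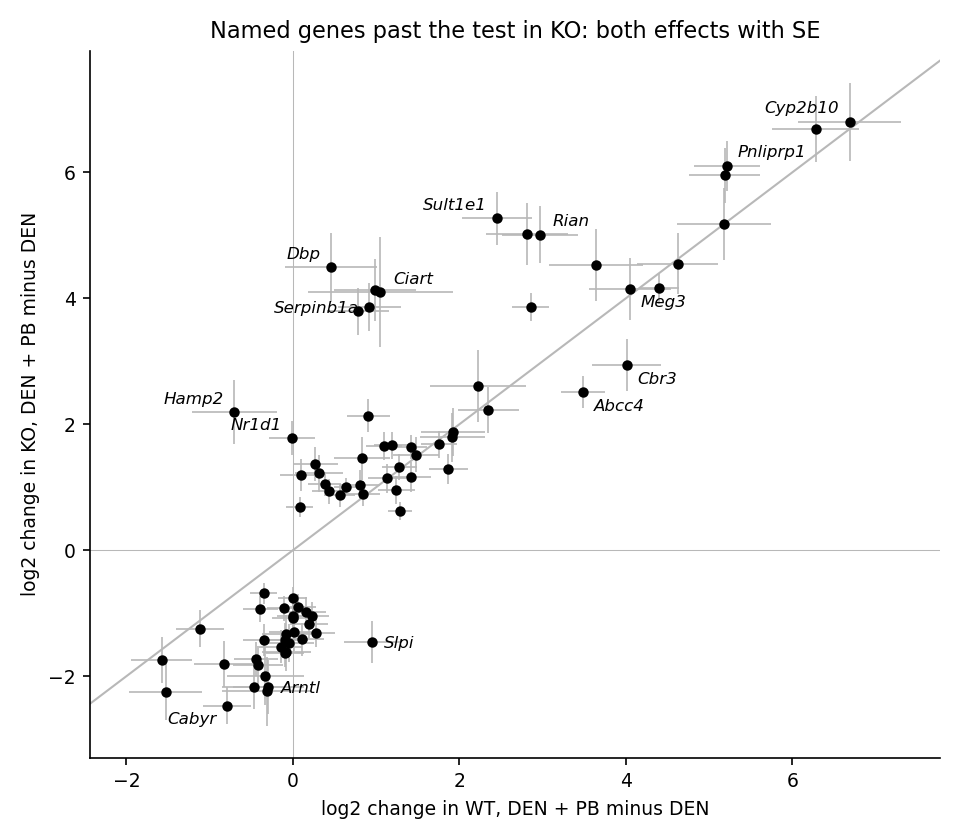
The 81 genes named by the rules that passed the test in KO, with the PB effect in WT on the horizontal and in KO on the vertical axis, both as log2 change with its SE. Points near the grey diagonal had effects of like size, and *Dbp*, *Serpinb1a* and *Sult1e1* lie above it, although 0 of the differences passed after adjustment.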

How the data were processed

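Liver RNA of 16 mice, 4 per group, was labelled with Cy3 and hybridised to 1-colour Agilent mouse arrays. The authors deposited the intensity of each spot as processed by Feature Extraction 12.0.3.1, which subtracts the background, with no scaling between arrays, and a series table of the same intensities on a linear scale. Spots with outlier marks were left out (71 to 122 per array), spots of one probe were averaged, and log2 intensity minus the 75th percentile of its array was used. Probes entered the test if some group had all 4 of its arrays well above background. A gene dim throughout 1 group thus entered through a brighter group, so its count of arrays above background there is no separate support. Group means over the 16 arrays were fitted with limma 3.58.1 in R 4.3.3, with Benjamini-Hochberg adjustment over 24457 probes, and calls needed both an adjusted p below 0.05 and at least 1.5-fold. The number of arrays limits the precision. The KO effect, the WT effect and their difference came from this fit. On simulated data with 200 probes changed among 24457, 56% of changes of log2 1 and 90% of log2 2 were recovered for this comparison, with 5 false calls. Of 41174 probes, 28223 matched a RefSeq symbol (GRCm38.p6), and a gene takes the value of its brightest probe. A signal that was above background on no array of a group gives a bound, the mean of the brighter group against, per array, the higher of its own signal and the lowest signal well above background. Promoter windows were aligned with Biopython 1.88.

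The genes named are the 12 that the study measured by PCR, the 12 largest rises and 12 largest falls whose groups did not overlap, and, of each of 33 gene lists, up to 8 called members by size with central members whether or not they passed. The members and lists were chosen with earlier results of these data known, and 3 lists (B cell, neutrophil and Serpinb1) after values were seen. Lists were described, not tested. The alternatives were normexp background correction, with and without spots of outlying background, quantile and median scaling, the unscaled series table, no filter and a stricter filter on dim probes, the KO arrays alone, no moderation as in the study's own test, the slide or the replicate number as a block, and leaving out each array. Normexp used median spot signals. Nothing says that same-numbered mice were littermates, and the mice are taken as separate animals. Of the genes the rule names, 1 of the falls and some list members are not reported here.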

Additional observations from a re-analysis of the deposited data

Results flagged for a closer look

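Among 64 groups of 4 arrays, which were those of the PCR genes and the leading rises and falls, 4 held a liver that lay apart from the rest by Dixon's measure, the gap to the nearest liver divided by the whole range, where chance gives about 1 in 20. KO DEN replicate 3 had *Cdh1* at -1.68, against 0.94 to 1.42 in the other livers of its group (ratio 0.845). KO DEN + PB replicate 4 had *Krt19* at -2.44, against -2.67 to -2.65 (ratio 0.904), a group whose whole range was small. For *Gadd45b*, below background on every KO array, KO DEN replicate 1 lay low at -7.67 against -7.03 to -6.92 (ratio 0.855), and KO DEN + PB replicate 3 lay high at -5.79 against -7.02 to -6.93 (ratio 0.926).

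The effect of PB differed between the genotypes at 2 probes with no gene name here. Probe A_52_P134621 changed by 0.29 in KO and by -4.05 in WT, a difference of 4.34 (limma adjusted p = 0.00281), but it was well above background on 4 of 4 arrays of WT DEN and on 0 of 4 of each other group. That probe thus entered the test through WT DEN alone. Probe A_52_P259497 changed by -1.66 in KO and by 2.81 in WT, a difference of -4.48 (adjusted p = 0.0133), and was above background on 4 of 4 KO DEN, 3 of 4 KO DEN + PB, 1 of 4 WT DEN and 4 of 4 WT DEN + PB arrays.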

How the results depend on the processing

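The 309 genes called became 172 (115 higher, 57 lower) with no filter on dim probes, 45 (41 and 4, or 91.1% higher in place of 57.6%) with normexp, 186 in a fit of the KO arrays alone (59 lower), and 160 (58 and 102, or 36.3% higher) with the unscaled series table. The falls numbered 81 with no moderation and 82 with normexp that left out outlying backgrounds. Leaving out 1 array gave 196 (without KO DEN replicate 1) to 357 genes, 122 to 199 higher and 69 to 162 lower. Falls numbered 70 without KO DEN + PB replicate 2, 78 without KO DEN + PB replicate 4, 79 without KO DEN replicate 2 and 84 without KO DEN replicate 4. Without KO DEN replicate 1 and KO DEN + PB replicate 2 together, a choice made after seeing the data, 115 genes (86 higher, 29 lower) were called. The other settings stayed within 1.5 times of the totals given, and the cause of these moves was not tested.

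With the replicate number as a block (replicate block) 289 genes were called. The signals showed no pairing by number. The correlations of same-numbered KO arrays were between -0.108 and 0.126, and 0 of 4 correlated best with their own number. This cannot tell whether same-numbered mice shared a litter, cage or day, which the labels do not give. Named genes that differed between KO and WT numbered 0 in the fit described, 1 with normexp that left out outlying backgrounds (*Sult1e1*), 1 with the series table (*Slpi*) and 0 to 2 when 1 array was left out.

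Of 81 called genes named here, 46 passed whichever 1 array was left out. Over all settings of the named genes, 1912 values kept direction and call, 419 missed the threshold, 3 came past it and 10 reversed. The reversals were of genes with little change or dim probes. *Casp1* turned to 0.007 with the slide as a block, and ran from -0.15 to 0.0396 when 1 array was left out, above 0 without KO DEN + PB replicate 2 or 4 or KO DEN replicate 3. With normexp, first with and then without outlying backgrounds, *Krt19* turned to 0.0607 and 0.0558, *Nedd9* to 0.0232 and 0.0157 and *Npas2* to 0.0705 and 0.0597. Where a signal was not well above background in one group, a fold change has only a bound, as for 13 of the genes that rose and 11 of those that fell.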

Other observations

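Among the genes that rose, 13 were well above background on no KO DEN array. The ones named here were chosen after their values were seen, and all but *Cyp2b23* were above background on all 4 KO DEN + PB arrays. The filter let such genes in only through a group with all 4 arrays above background, so these counts are partly fixed by it. *Fbxo15*, which encodes an F-box protein of ubiquitin ligases, was at least 4.13-fold higher (limma adjusted p = 0.000429), and *Rsph4a*, a radial spoke protein of motile cilia, at least 2.79-fold higher (adjusted p = 0.00321). *Prss56*, a serine protease, was at least 2.92-fold higher and *Slc1a1*, a glutamate transporter, at least 2.58-fold higher (adjusted p = 0.0209 and 0.0069). *Cyp2b23*, a further gene of the 2B subfamily, passed background in 3 livers of KO DEN + PB and was at least 2.17-fold higher (adjusted p = 0.000186). In WT, *Fbxo15*, *Rsph4a*, *Slc1a1* and *Cyp2b23* were above background on 0 of 4 WT DEN and 4 of 4 WT DEN + PB arrays.

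Of the 11 genes that fell and were above background on no KO DEN + PB array, *Med12l* was at least 2.32-fold lower and *Slc38a5*, a glutamine transporter, at least 2.17-fold lower (adjusted p = 0.0176 and 0.0117). *Bcat1*, which starts the breakdown of branched-chain amino acids, had a bound of 1.16-fold (adjusted p = 0.00146), and in WT it went from above background on 4 of 4 arrays to 0 of 4.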
